A study of Mus musculus with 35 samples.

Results

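Cholesterol synthesis, its regulators and cholesterol transport were followed through 33 genes in the mouse hippocampus after status epilepticus (SE). The members were the rows of the mRNA count table whose gene symbols are 18 enzymes of cholesterol synthesis, 7 regulators and 8 genes of transport, storage and turnover, out of 43629 identifiers in all. All 33 were found, 31 by symbol, Msmo1 by an older name and Hmgcs1 by the identifier ENSMUSG00000093930. Every member was detected in all 19 mRNA libraries, with counts from 22 (Nr1h3) to 33526 (Apoe), and all 33 passed the filter on low counts at each time.

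The brain makes nearly all of its own cholesterol, because lipoproteins of the blood do not cross the blood-brain barrier. Acetyl-CoA is turned into mevalonate and isoprenoid units, then into squalene and lanosterol, and then through a chain of sterols into cholesterol. When sterols in the endoplasmic reticulum are low, SCAP escorts SREBP proteins away from the INSIG proteins so that they can switch on the enzymes, whereas the liver X receptors (Nr1h2 and Nr1h3) answer to oxysterols and raise efflux genes such as Abca1 and Apoe. Astrocytes supply much of the adult brain's cholesterol, and neurons dispose of it through Cyp46a1, which hydroxylates it so that it can leave the brain.

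C57BL/6J mice of both sexes, aged 6 to 7 weeks, received scopolamine and then either pilocarpine intraperitoneally (first dose 350 mg/kg), a muscarinic agonist that brings on seizures, or vehicle. The left hippocampus was taken 1 h, 8 h, 36 h or 120 h after seizure onset. The labels number the libraries as replicates without tying each to an animal, so p-values measure the spread between these libraries. There were 3 SE and 2 control libraries at 1 h, 2 SE and 3 control libraries at 8 h, and 3 SE libraries each at 36 h and 120 h, which share 1 set of 3 controls. Those controls carry a time label of 36 h, source names of 36-120 hour and library names with t0. The labels therefore do not settle the time of these controls, and the 120-h libraries have no separate set. A separate set of 16 small RNA libraries, 2 SE and 2 control at each time, was taken at 1 h, 8 h, 24 h or 120 h after onset. It was used for the microRNA that lies inside Srebf2. In this set SE replicate 2 of 120 h has a source name with another hour than its time tag, and the time tag was used.

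Total counts ran from 8503816 to 28465548 per mRNA library. The libraries came in 4 labelled batches, and 3 of them (control replicate 1 and SE replicate 3 of 1 h and control replicate 1 of 8 h) belong to batch G511, apart from the rest of their time. Control replicate 1 of 8 h stood apart from its group. Its counts differed from those of the remaining 8-h controls with a chi-square per degree of freedom of 62.9 and 82.3, against 10.3 between that pair. Markers of the choroid plexus, a tissue next to the hippocampus, had a mean log2 CPM of 5.30 to 5.31 in 2 SE libraries at 36 h and of 5.53 in 1 SE library at 120 h, against 0.389 to 0.781 in the other libraries of those times. Xist exceeded 100 CPM in 2 of the 3 shared controls and in none of the SE libraries at 36 h, so Xist level and SE are largely confounded there. The 10 markers of hippocampal neurons had a mean log2 CPM of 8.31 to 8.88 across the libraries. In bulk tissue, fewer cells of a type and less RNA per cell cannot be told apart.

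The promoters are shown first because 14 of the 15 synthesis genes with a RefSeq promoter held a CCAAT box, the letters CCAAT or their reverse complement ATTGG, which the factor NF-Y reads next to SREBP. Windows of 250 bases before to 50 bases after the start site (RefSeq, GRCm38.p6) were given for 27 of the 33 members. The CCAAT box occurred in 93.3% of the synthesis genes, in 4 of 7 regulators and in 3 of 5 transport genes, beside 41.1% of 27025 genes and 37.4% of 32851 promoter windows. The GC box GGGCGG (reverse complement CCGCCC), read by Sp1, was likewise in 14 of 15 synthesis genes, 5 of 7 regulators and 4 of 5 transport genes, beside 38.2% of all genes and 35.7% of all windows. The sterol regulatory element in the form TCACNCCAC (reverse complement GTGGNGTGA) was found in Hmgcs1 alone of the 27, beside 1.44% of all genes and 1.24% of all windows. The E-box CACGTG, its own reverse complement, was in 3 synthesis genes, 2 regulators and Abca1, beside 8.09% of all genes and 7.15% of all windows. These are matches of letters and not mapped binding sites, and base composition was not matched. The promoters below belong to 4 enzymes and, for contrast, to the efflux pump Abca1. Capitals mark the CCAAT box on either strand and, in Hmgcs1, also the sterol regulatory element.
Hmgcs1, GRCm38.p6 chr13:119690101-119690400, plus strand: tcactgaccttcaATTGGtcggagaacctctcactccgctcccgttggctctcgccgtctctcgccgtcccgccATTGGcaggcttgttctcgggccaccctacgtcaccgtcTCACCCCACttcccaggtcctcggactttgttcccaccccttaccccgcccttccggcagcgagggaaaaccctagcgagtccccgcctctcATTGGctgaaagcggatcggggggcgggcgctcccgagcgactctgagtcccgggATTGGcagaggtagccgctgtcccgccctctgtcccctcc
Mvd, GRCm38.p6 chr8:122443373-122443672, minus strand: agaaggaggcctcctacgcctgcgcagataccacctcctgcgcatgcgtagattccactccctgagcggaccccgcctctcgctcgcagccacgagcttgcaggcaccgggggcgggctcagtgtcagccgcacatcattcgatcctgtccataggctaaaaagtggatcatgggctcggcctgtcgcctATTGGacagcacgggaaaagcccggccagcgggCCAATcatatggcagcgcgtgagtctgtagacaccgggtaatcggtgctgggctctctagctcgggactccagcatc
Msmo1, GRCm38.p6 chr8:64733529-64733828, minus strand: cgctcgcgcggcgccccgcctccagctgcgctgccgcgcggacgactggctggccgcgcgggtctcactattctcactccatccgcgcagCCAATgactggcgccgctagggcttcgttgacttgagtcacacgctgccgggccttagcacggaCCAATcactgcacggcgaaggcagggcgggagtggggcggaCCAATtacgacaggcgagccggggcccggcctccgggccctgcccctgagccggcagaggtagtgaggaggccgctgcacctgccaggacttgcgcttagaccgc
Nsdhl, GRCm38.p6 chrX:72918271-72918570, plus strand: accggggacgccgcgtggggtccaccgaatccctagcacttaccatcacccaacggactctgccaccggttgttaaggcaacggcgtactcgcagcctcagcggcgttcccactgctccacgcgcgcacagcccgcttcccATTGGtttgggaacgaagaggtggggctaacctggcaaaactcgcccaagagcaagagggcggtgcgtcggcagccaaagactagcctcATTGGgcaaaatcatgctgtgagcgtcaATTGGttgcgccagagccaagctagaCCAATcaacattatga
Abca1, GRCm38.p6 chr4:53159846-53160145, minus strand: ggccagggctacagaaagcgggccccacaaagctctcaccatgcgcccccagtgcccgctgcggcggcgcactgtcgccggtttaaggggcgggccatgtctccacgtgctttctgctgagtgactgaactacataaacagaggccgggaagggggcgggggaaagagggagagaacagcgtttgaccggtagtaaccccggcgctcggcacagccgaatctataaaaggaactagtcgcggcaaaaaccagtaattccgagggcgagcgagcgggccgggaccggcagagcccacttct
Hmgcs1 and Nsdhl each held 4 CCAAT boxes, Msmo1 held 3 and Mvd 2, whereas the Abca1 window held none.

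**Figure D1:**
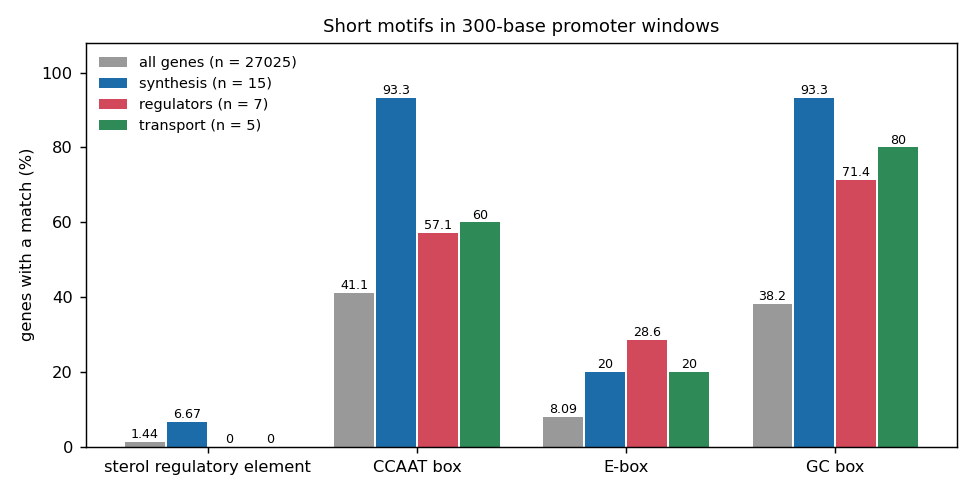
Bars give the percentage of genes whose 300-base promoter window holds each short motif on either strand, for all 27025 genes and for the members by role. The CCAAT box and the GC box stood at 93.3% in the 15 synthesis genes, against 41.1% and 38.2% of all genes.

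Levels in control hippocampus spanned a wide range. Per kilobase of exon, the median over the 8 control libraries was highest for Apoe, the lipoprotein that carries cholesterol between brain cells, at 654 CPM per kb (range 476 to 1096). Cyp46a1 followed at 64.4 and Srebf2 at 36.5 CPM per kb. The lowest were Nr1h3 at 1.27 and Idi1 at 2.82 CPM per kb. Fdps, Fdft1 and Pmvk, at 25.6, 24.9 and 24.8 CPM per kb, had overlapping ranges and were not separated by these libraries. Hmgcs1 has no exon length in the annotation used and was not ranked. Synthesis genes as a class also differed between sets of controls. Their mean log2 CPM was 4.88 and 5.04 in the 1-h controls, 4.88 to 4.96 in the 8-h controls and 5.15 to 5.29 in the shared controls, so each SE group is set only against the controls assigned to it by the labels.

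At no time did any member pass an adjusted p of 0.05 for SE against control in edgeR's quasi-likelihood test. The synthesis genes nevertheless lay on different sides of zero at different times. Their median log2 fold change was -0.12 at the first time, -0.23 at 8 h, 0.30 at 36 h and -0.06 by 120 h, beside medians over all genes tested that lay between -0.01 and 0.01. Regulators and transport genes together had medians of -0.05, 0.07, 0.16 and 0.03. These medians carry no test, and the 36-h and 120-h values share their controls.

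**Figure D2:**
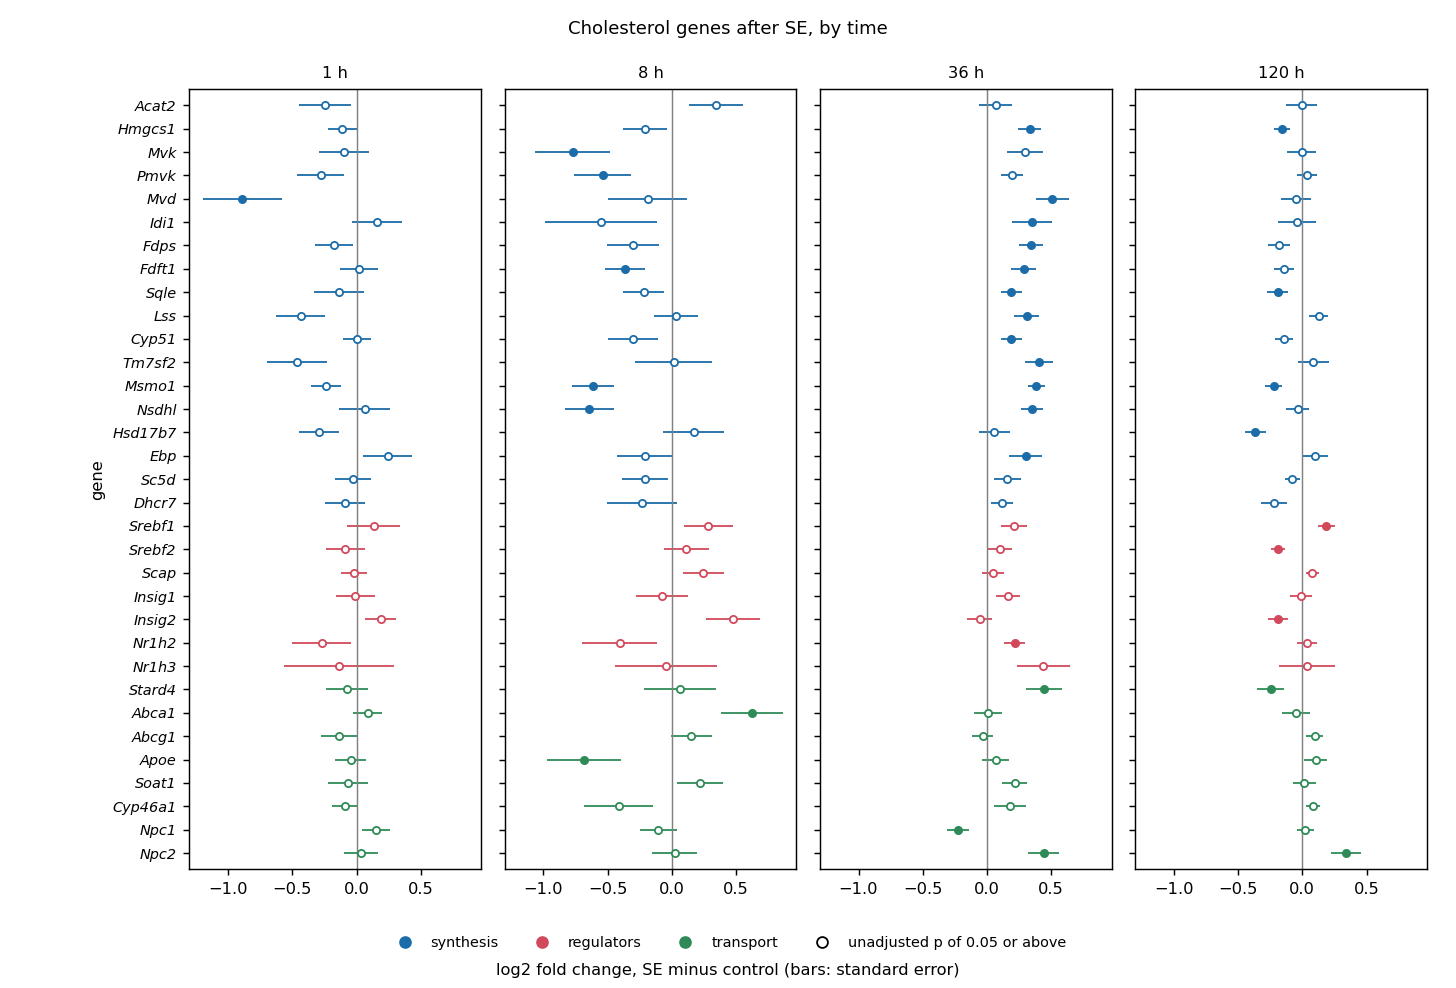
Each row is a member and each panel a time, and the horizontal axis is the log2 fold change of SE over control with its standard error. Filled points have an unadjusted p under 0.05, and colours mark synthesis, regulators and transport. At 36 h all 18 synthesis genes lie to the right of zero, whereas 14 of 18 lie to the left at 8 h.

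**Figure D3:**
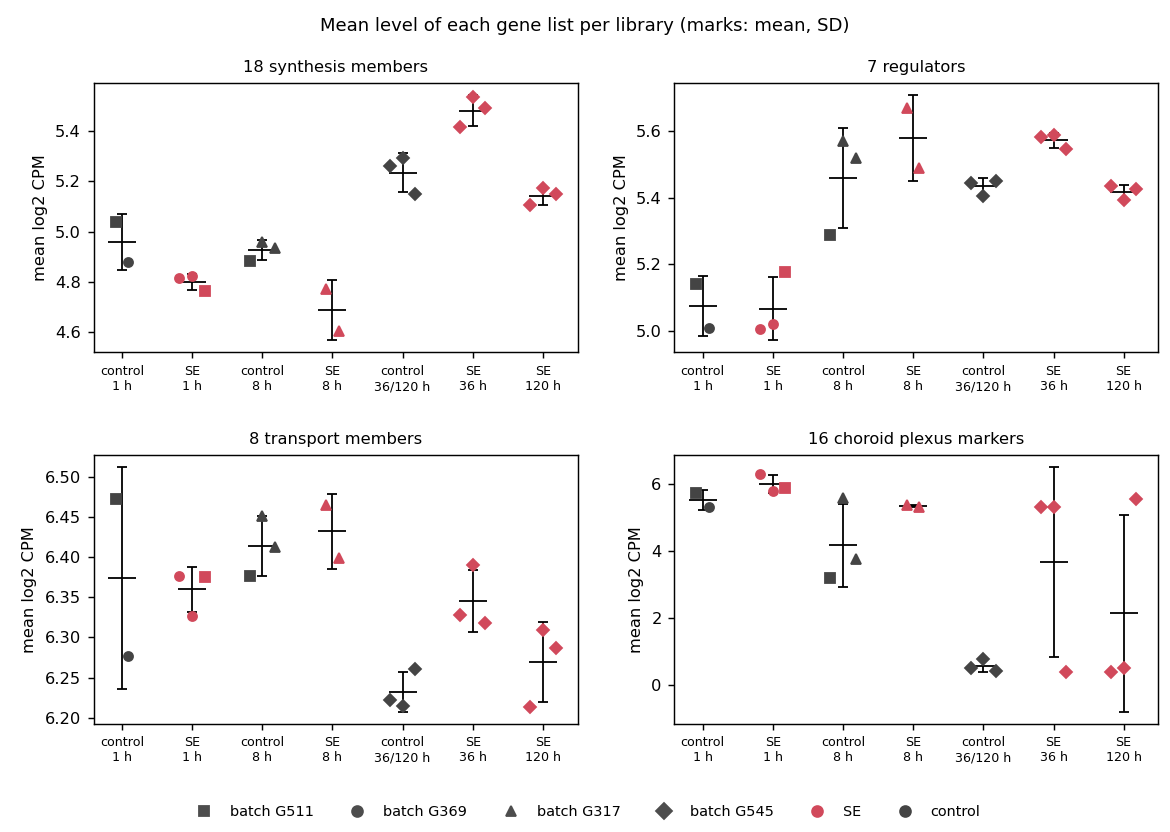
Points give the mean log2 CPM of the genes of each list in each of the 19 libraries, with symbols for the batch, and bars give the group mean and SD. All 3 SE libraries at 36 h lie above the 3 shared controls for the 18 synthesis members, and SE replicate 3 does so with choroid plexus markers as low as in the controls.

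At 36 h, midway through the seizure-free latent period, the fitted fold changes of the synthesis genes were positive along the chain, though not every gene separated from control. All 18 had a positive log2 fold change, from 0.06 to 0.51, against 51.7% of all genes. Unadjusted p was under 0.05 for 12 of 18, all higher, where 5.29% of the 15850 genes tested were higher at that p, but no member passed the adjusted threshold, which 0.0252% of all genes did (4 genes). The likelihood ratio test and DESeq2 each called 1 member, Msmo1, among 125 and 101 genes overall. In 10 of 18 every SE library lay above every control, beside 6.97% of all genes. The mean log2 CPM of the 18 genes was 5.42, 5.54 and 5.49 in the SE libraries and 5.26, 5.29 and 5.15 in the controls.

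Among the mevalonate genes, Mvd, which makes isopentenyl pyrophosphate, measured 28.3, 31.7 and 31.5 CPM in SE against 24.4, 22.9 and 17.9 CPM in controls. The groups did not overlap, and the log2 fold change was 0.51 ± 0.13 (± standard error here and throughout, adjusted p = 0.378). Hmgcs1, the enzyme that makes HMG-CoA, measured 275, 338 and 295 CPM against 238, 261 and 232 CPM, which is 0.33 ± 0.09 on the log2 scale (adjusted p = 0.393). Fdps, which joins isoprenoid units into farnesyl pyrophosphate, measured 63.0, 55.2 and 59.5 CPM against 50.3, 49.2 and 43.0 CPM, and the log2 fold change was 0.34 ± 0.09 (adjusted p = 0.385). Each of these genes kept every SE library above every control. Idi1, the isomerase between Mvd and Fdps, had 0.35 ± 0.16 and also did not overlap, while the fold changes of Acat2, Mvk and Pmvk were 0.07, 0.29 and 0.19 with unadjusted p above 0.05.

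The genes of squalene and lanosterol were all 3 positive. Fdft1 (squalene synthase) had a log2 fold change of 0.29 ± 0.10, Lss (lanosterol synthase) 0.31 ± 0.10 and Sqle (squalene epoxidase) 0.19 ± 0.08. The SE and control values of Sqle overlapped, and those of the other two did not.

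Of the sterol enzymes, Msmo1, which removes methyl groups at carbon 4 together with Nsdhl, had the smallest p of all 33 members. It measured 122, 129.5 and 120.4 CPM in SE and 99.5, 96.5 and 93.4 CPM in controls, so the SE libraries all lay above the controls. Its log2 fold change was 0.38 ± 0.07 (unadjusted p = 0.000256, adjusted p = 0.186 by the quasi-likelihood test). The adjusted p was 0.00308 by the likelihood ratio test, 0.00684 by DESeq2 and 1 with Xist as a covariate. Without SE replicate 3, the library with low choroid plexus and low myelin markers, it was 0.00793. Nsdhl, the X-linked partner enzyme, measured 30.2, 32.1 and 33.1 CPM against 24.5, 26.0 and 25.5 CPM, and the log2 fold change was 0.35 ± 0.09 (adjusted p = 0.378). Tm7sf2, a sterol reductase, measured 22.2, 22.3 and 25.1 CPM against 18.9, 16 and 18.3 CPM, with 0.40 ± 0.11 (adjusted p = 0.388). Cyp51 and Ebp had 0.19 ± 0.08 and 0.30 ± 0.13 with overlapping values. Hsd17b7, Sc5d and Dhcr7, at 0.06, 0.16 and 0.12, had unadjusted p above 0.05.

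Of 7 regulators 6 had a positive log2 fold change at 36 h (median 0.16), and 1 had an unadjusted p under 0.05, Nr1h2, the liver X receptor beta, at 0.22 ± 0.08. Nr1h3, the liver X receptor alpha, measured 4.52, 4.87 and 4.75 CPM in SE against 3.53, 2.80 and 4.20 CPM in controls. Its groups did not overlap, and its log2 fold change of 0.44 ± 0.20 (adjusted p = 0.662) was the highest of the regulators. Srebf2, whose protein drives the synthesis genes, measured 166, 197 and 220.2 CPM in SE against 188, 185 and 179 CPM in controls, so its groups overlapped (0.10 ± 0.10). Insig2 was the 1 regulator below zero, at -0.06.

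Transport genes lay on both sides of zero at 36 h. Npc2, the soluble lysosomal protein that hands cholesterol to Npc1, measured 84.6, 83.3 and 62.7 CPM against 53.1, 58.0 and 61.6 CPM, and the log2 fold change was 0.44 ± 0.12 (adjusted p = 0.393). The library nearest to the controls is SE replicate 3, and without it the value was 0.57 ± 0.08 (adjusted p = 0.00269). Choroid plexus markers were high in the other two SE libraries, and with their score as a covariate the value was 0.15 ± 0.10 (adjusted p = 0.548). Npc1, the membrane partner, lay lower, at 65.1, 64.0 and 56.2 CPM against 68.4, 73.8 and 77.7 CPM (-0.23 ± 0.09). Stard4, a cytosolic sterol carrier, had 0.44 ± 0.14. The efflux genes Abca1, Abcg1 and Apoe had log2 fold changes of 0.01, -0.03 and 0.07, all smaller than their standard errors.

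Several measured features moved with SE at 36 h. The 16 choroid plexus markers summed to 64.6 CPM in SE replicate 3, against 63.2 to 135 CPM in the controls and up to 7321 CPM in the other SE libraries. The mean level of the 18 synthesis genes in SE replicate 3, 5.49, was between those of the other two SE libraries and above every control. When the choroid plexus score was added as covariate, 17 of 18 genes were positive, with a median of 0.28 and 9 genes higher at an unadjusted p under 0.05, beside 7.09% of all genes in that fit. Without SE replicate 3 there were also 17 of 18, with a median of 0.24. With Xist as a covariate the median was 0.25 and 3 of 18 genes were higher at an unadjusted p under 0.05, beside 1.41% of all genes. Astrocyte markers had a mean log2 CPM of 8.13 to 8.26 in SE and of 7.89 to 8.05 in controls, with 6 of 9 positive. In the fit without covariates 4 of these 9 were higher at an unadjusted p under 0.05, beside 5.29% of all genes. Of the 9, 1 passed the adjusted threshold, beside 0.0252% of all genes. Microglia markers had 5.16 to 5.30 in SE and 5.09 to 5.19 in controls, with 6 of 8 positive, 3 of them at an unadjusted p under 0.05. The part of the astrocyte and microglia markers in the synthesis values was not tested. All 12 myelin markers were negative (median log2 fold change -0.26), with a mean log2 CPM of 6.80 in SE replicate 3 and of 7.44 to 7.97 in the other libraries of the comparison. With the myelin score as a covariate 17 of 18 synthesis genes were positive, with a median of 0.23.

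At 8 h the direction of the synthesis genes was the other one. Of 18 genes 14 had a negative log2 fold change (median -0.23), with 49.1% of all genes above zero, and 5 had an unadjusted p under 0.05, all lower, where 5.52% of the 15610 genes tested were lower at that p. The quasi-likelihood test called no gene at all at 8 h (0%), member or other. The likelihood ratio test and DESeq2 called no member, though 89 and 95 genes overall. In 6 of 18 both SE libraries lay below all 3 controls, beside 14% of all genes.

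Mvk, the mevalonate kinase, measured 9.76 and 11.6 CPM in SE and 12.2, 20.5 and 22.2 CPM in controls, with a log2 fold change of -0.77 ± 0.29 (adjusted p = 0.497). Pmvk, the next kinase, measured 25.3 and 25.0 CPM against 27.1, 38.9 and 42.8 CPM, with -0.54 ± 0.22 (adjusted p = 0.511). For both kinases the control nearest to the SE libraries was control replicate 1. Msmo1 measured 48.5 and 41.8 CPM against 71.3, 68.9 and 64.5 CPM, with -0.61 ± 0.16 (adjusted p = 0.471), and here control replicate 1 was the farthest from SE. Nsdhl measured 17.2 and 19.5 CPM against 25.6, 30.0 and 30.0 CPM, with -0.64 ± 0.19 (adjusted p = 0.474). In all 4 genes both SE libraries were below every control.

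The efflux pump Abca1 and the lipoprotein gene Apoe lay on opposite sides of zero at 8 h. Abca1, which loads cholesterol onto apolipoproteins, measured 58.7 and 87.7 CPM in SE against 58.5, 46.4 and 36.8 CPM in controls, with a log2 fold change of 0.62 ± 0.24 (adjusted p = 0.503), and SE replicate 1 was level with control replicate 1. Apoe measured 1085 and 1069 CPM against 1021, 1968 and 2169 CPM, with -0.68 ± 0.29 (adjusted p = 0.511). Control replicate 1 was thus at the SE level, while the other two controls were well above it. Insig2, an anchor that holds SCAP back, had 0.47 ± 0.21 with both SE libraries above all controls. Srebf1, Srebf2 and Scap had log2 fold changes of 0.28, 0.11 and 0.24 with unadjusted p above 0.05.

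The 8-h values moved with single libraries. The synthesis median was -0.43 without SE replicate 1 and -0.14 without SE replicate 2. Members at an unadjusted p under 0.05 numbered 7 with all libraries, beside 9.47% of all genes. They became 12 without control replicate 1 (28.3% of all genes), 2 without control replicate 2 (5.09%), 2 without control replicate 3 (5.38%), 2 without SE replicate 1 (2.71%) and 1 without SE replicate 2 (9.81%). With batch as a covariate, which leaves SE replicates 1 and 2 against control replicates 2 and 3, 13.5% of all genes passed (2111 genes) and so did 9 of the 33 members. Mvk (-0.99 ± 0.22), Pmvk (-0.71 ± 0.16), Msmo1 (-0.58 ± 0.13) and Nsdhl (-0.71 ± 0.18) fell in that fit, with adjusted p from 0.0116 to 0.0209. Apoe (-0.95 ± 0.10, adjusted p = 0.000255), Cyp46a1 (-0.65 ± 0.13) and Nr1h2 (-0.67 ± 0.14) also fell. Abca1 (0.82 ± 0.19, adjusted p = 0.0151) and Insig2 (0.66 ± 0.16, adjusted p = 0.0186) rose. Leaving out control replicate 1 gave 2065 genes (13.4%) and again 9 members. By role, 4 of 18 synthesis genes, 2 of 7 regulators and 3 of 8 transport genes passed in the batch fit.

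Mean marker levels of several cell types lay apart between SE and control at 8 h, whereas those of the choroid plexus overlapped. Myelin markers had a mean log2 CPM of 7.07 to 7.12 in SE and of 7.27 to 7.51 in controls, with 11 of 12 negative. With their score as a covariate Msmo1 had -0.48 ± 0.35 (adjusted p = 0.647), and the synthesis median was -0.24 with 11 of 18 negative. Choroid plexus markers were all 16 positive (median 0.76), with a mean log2 CPM of 5.31 and 5.36 in SE against 3.19, 5.57 and 3.74 in controls. With their score as a covariate Msmo1 had -0.61 ± 0.23 (adjusted p = 0.660), and the synthesis median was -0.24 with 15 of 18 negative. Microglia markers had 4.56 and 4.47 in SE against 4.74 to 4.81 in controls, with 6 of 8 negative. Markers of hippocampal neurons had 8.56 and 8.62 in SE against 8.69 to 8.88 in controls, with 7 of 10 negative. With batch as a covariate 5 of these 10 were called, 4 lower and 1 higher, beside 13.5% of all genes. The part of the microglia and neuron markers in the synthesis values was not tested.

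**Figure D4:**
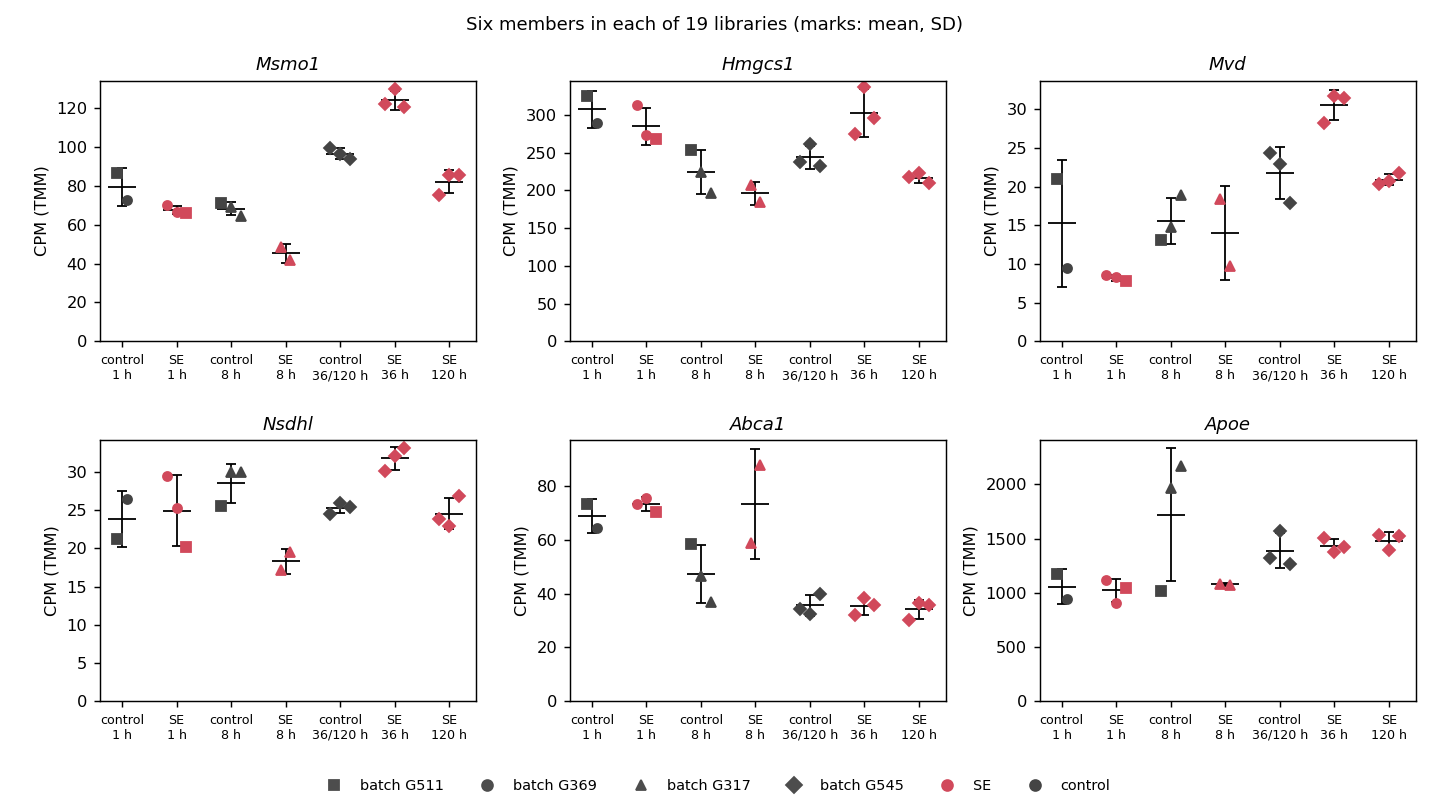
Points give the TMM-normalized CPM of 4 enzymes and 2 transport genes in each library, with symbols for the batch, and bars give the group mean and SD. Msmo1 is lowest in the 2 SE libraries of 8 h and highest in the 3 SE libraries of 36 h, and Apoe in control replicate 1 of 8 h, the square, lies at the SE level.

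The effects of SE at 36 h and at 8 h were then set against each other in 1 fit of all 19 libraries. Msmo1 differed between the times by 0.96 ± 0.14 on the log2 scale (adjusted p = 0.0119, quasi-likelihood test) and was the 1 member among 25 genes called (0.144% of 17415). It was lower than control in 2 of 2 SE libraries at 8 h and higher in 3 of 3 at 36 h. The synthesis genes had a median difference of 0.50 with 16 of 18 positive, against a median of 0.01 over all genes and 50.7% positive, and regulators and transport genes had -0.04 with 7 of 15 positive. Unadjusted p was under 0.05 with a positive difference for 10 of 18 synthesis genes, where 7.09% of all genes did so. Mvk (1.03 ± 0.28, adjusted p = 0.139), Nsdhl (0.96 ± 0.21, 0.0682), Fdft1 (0.62 ± 0.17, 0.14), Fdps (0.62 ± 0.19, 0.169) and Hmgcs1 (0.51 ± 0.16, 0.185) missed the threshold. Abca1 (-0.65 ± 0.24) and Insig2 (-0.56 ± 0.19) had differences of the opposite sign, with adjusted p of 0.234 and 0.2. Apoe (0.72 ± 0.28) and Cyp46a1 (0.56 ± 0.26) had the sign of most synthesis genes, with adjusted p of 0.26 and 0.344.

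This contrast also moved when libraries were left out. Without the 3 libraries of that batch 13% of all genes (2381) and 11 members passed, 6 of them synthesis genes. Msmo1 then differed by 0.94 ± 0.12 (adjusted p = 0.000294), Nsdhl by 1.04 ± 0.16, Mvk by 1.26 ± 0.23, Pmvk by 0.88 ± 0.14, Fdps by 0.72 ± 0.17 and Fdft1 by 0.61 ± 0.15. Apoe (0.99 ± 0.16) and Abca1 (-0.83 ± 0.22) passed with opposite signs. Without control_8h replicate 1 alone 11 members passed as well, among 1976 genes called. Without shared control replicate 3 no gene passed (0 called), member or other, and Msmo1 had 0.94 (adjusted p = 0.0601). Xist and cell marker levels were not entered in this contrast, and their part in it was not tested.

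**Figure D5:**
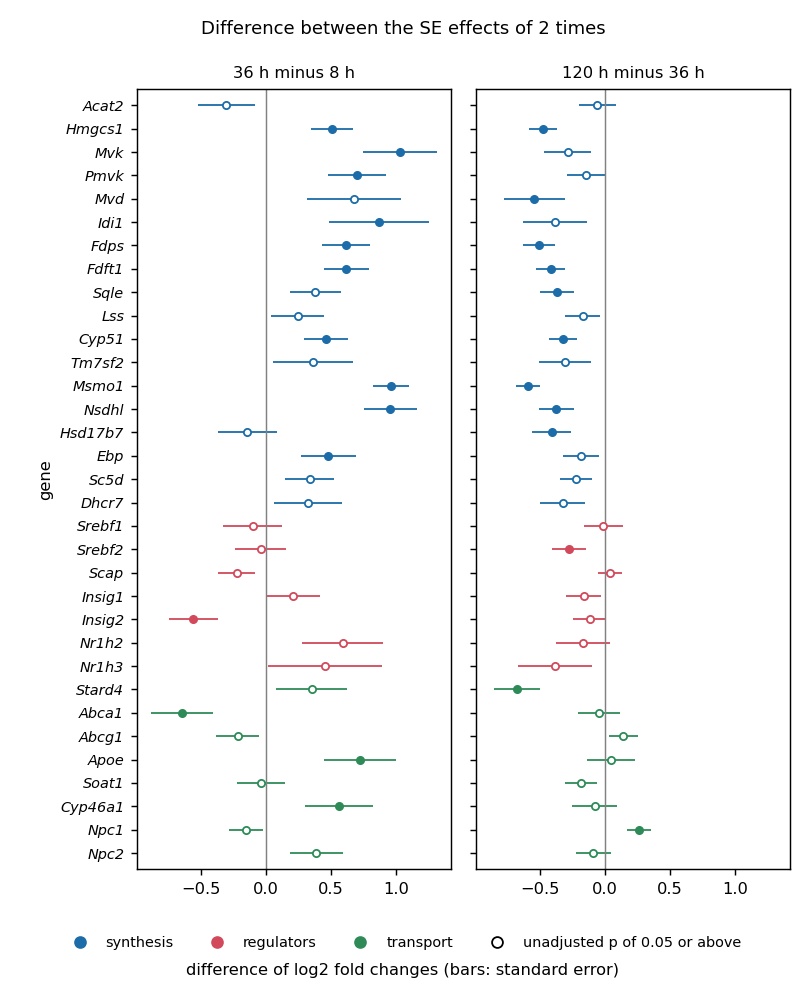
Each row is a member, and the horizontal axis is the difference between the SE effects of 2 times on the log2 scale with its standard error. From 8 h to 36 h 16 of 18 synthesis genes lie to the right of zero, and from 36 h to 120 h all 18 lie to the left.

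By 120 h, the end of the latent period, the synthesis genes were back near control or slightly below. Of 18 genes 14 had a negative log2 fold change (median -0.06), with 53% of all genes above zero, and 4 had an unadjusted p under 0.05, all lower, where 5.06% of 15996 genes were. No member passed the adjusted threshold, which 0.0563% of all genes did (9 genes). Neither the likelihood ratio test nor DESeq2 called a member, though they called 76 and 144 genes overall. Hsd17b7, which reduces a keto group on the sterol ring, measured 15.8, 16.6 and 15.2 CPM in SE against 20.0, 21.4 and 20.5 CPM in controls, with a log2 fold change of -0.37 ± 0.08 (adjusted p = 0.287). Msmo1 measured 75.4, 85.6 and 85.3 CPM against 99.5, 96.5 and 93.4 CPM, with -0.22 ± 0.06 (adjusted p = 0.362). Hmgcs1 measured 217, 223 and 210.0 CPM against 238, 261 and 232 CPM, with -0.16 ± 0.06 (adjusted p = 0.466). For these 3 enzymes the groups did not overlap, as for 6 of 18 synthesis genes, all lower, beside 8.2% of all genes.

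The SREBP genes were of opposite sign at 120 h. Srebf2 measured 152, 161 and 167 CPM against 188, 185 and 179 CPM, and the log2 fold change was -0.19 ± 0.06 (adjusted p = 0.367). Srebf1, whose protein also drives fatty acid genes, measured 52.3, 51.9 and 55.7 CPM against 45.7, 48.5 and 47.3 CPM, with 0.19 ± 0.06 (adjusted p = 0.424). Neither pair of groups overlapped. Npc2 measured 61.1, 71.8 and 84.0 CPM against 53.1, 58.0 and 61.6 CPM, with 0.34 ± 0.12 (adjusted p = 0.426), and its highest library was SE replicate 3, the one with high choroid plexus markers (summed 6690 CPM, against 66.0 CPM in the lowest SE library). Stard4 and Insig2 had -0.25 ± 0.11 and -0.19 ± 0.08.

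The contrast of 120 h with 36 h does not use the shared controls and compares 3 SE libraries with 3 SE libraries of 1 batch. Msmo1 differed by -0.59 ± 0.09, lower at 120 h (adjusted p = 0.00851), and was 1 of 14 genes called (0.0804% of 17415). Every 120-h library lay below every 36-h library. All 18 synthesis genes had a negative difference (median -0.35), while 50.8% of all genes had a positive one, and regulators and transport genes had a median of -0.09 with 11 of 15 negative. Unadjusted p was under 0.05 for 9 of 18 synthesis genes, all lower, where 2.23% of all genes were. Hmgcs1 (-0.48 ± 0.11, adjusted p = 0.178), Fdps (-0.51 ± 0.12, 0.242), Fdft1 (-0.42 ± 0.11, 0.41) and Stard4 (-0.68 ± 0.18, 0.388) followed, and Npc1 had 0.26 ± 0.09 (0.775). Msmo1 missed the threshold without SE_36h replicate 1 (adjusted p = 0.0509), SE_36h replicate 2 (0.0753) or SE_120h replicate 1 (0.126), with values from -0.54 to -0.61. Hmgcs1 and Stard4 passed as well when the G511 libraries were left out of the shared estimate of spread (0.164% of all genes). Cell markers moved in this contrast too. Astrocyte markers had a mean log2 CPM of 8.00 to 8.11 at 120 h against 8.13 to 8.26 at 36 h, and 4 of 9 were lower at an unadjusted p under 0.05, 1 of them past the adjusted threshold. Myelin markers were higher for 11 of 12 (median 0.33), and choroid plexus markers lower for 16 of 16 (median -0.67). The part of these markers in the contrast was not tested.

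At 1 h few members stood out by their p. Of 18 synthesis genes 13 had a negative log2 fold change, with 49.5% of all genes above zero, and 1 was lower at an unadjusted p under 0.05, beside 2.07% of all 16264 genes. No member was called by the quasi-likelihood test, where 0.0799% of all genes were (13 genes). The likelihood ratio test and DESeq2 also called no member, though 69 and 63 genes overall. Mvd measured 8.57, 8.26 and 7.80 CPM in SE against 21.0 and 9.47 CPM in controls, with a log2 fold change of -0.89 ± 0.31 (adjusted p = 0.999), and control replicate 1, of batch G511, was the 1 library far above the rest. Lss measured 38.0, 39.2 and 35.7 CPM against 62.5 and 39.3 CPM (-0.44 ± 0.19), again with 1 high control from that batch. Tm7sf2 measured 6.27, 8.32 and 10 CPM against 11.2 and 11.4 CPM (-0.46 ± 0.24). Msmo1 and Hsd17b7 had -0.23 ± 0.12 and -0.29 ± 0.16, and Insig2 had 0.19 ± 0.12, each with an adjusted p of 0.999. Within batch G511 the mean log2 CPM of the synthesis genes was -0.27 in SE minus control, and within G369 it was -0.06. Without control replicate 1 no member had an unadjusted p under 0.05 (2.75% of all genes did, by the quasi-likelihood test), and without control replicate 2 there were 9, beside 8.66% of all genes.

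The change from 1 h to 8 h was not called for any member (26 of 17415 genes, 0.149%). Nsdhl differed by -0.69 ± 0.22 (adjusted p = 0.208), Msmo1 by -0.37 ± 0.15 (0.316) and Mvk by -0.66 ± 0.31 (0.396). Acat2 (0.59 ± 0.24), Lss (0.48 ± 0.21) and Abca1 (0.55 ± 0.25) had positive differences. Without the 3 libraries of batch G511, 4 members passed (3.56% of all genes), Apoe (-1.05 ± 0.19), Nr1h2 (-0.86 ± 0.17), Nsdhl (-0.75 ± 0.20) and Pmvk (-0.66 ± 0.17).

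Other genes of the pathway were counted from 3 further lists, and none of them was called at any time by the quasi-likelihood test with all libraries and no covariate. At 36 h, where 5.29% of all genes were higher at an unadjusted p under 0.05, 2 of 11 other synthesis and SREBP processing genes were so, Cyb5r3 with a log2 fold change of 0.30 ± 0.09 and Acaa2 with 0.50 ± 0.18. Of 13 fatty acid genes 4 were higher at that p, Acss2 at 0.24, Fads2 at 0.23, Scd1 at 0.25 and Fads1 at 0.16. Of 28 other transport genes 3 were, Abca7 (0.32 ± 0.10), Clu (0.29 ± 0.11) and Lamp2 (0.39 ± 0.16). No gene of these lists was lower at that p at 36 h.

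At 120 h 4.54% of all genes were higher and 5.06% lower at an unadjusted p under 0.05. Of the other synthesis genes 1 was higher, Erlin2 (0.16 ± 0.07), and of the fatty acid genes 2 were lower, Elovl6 (-0.26 ± 0.06) and Fasn (-0.16 ± 0.06). Of the other transport genes 3 were higher and 2 lower. Vldlr, a lipoprotein receptor, had 0.21 ± 0.05 and Clu 0.24 ± 0.09, while Gramd1b had -0.21 ± 0.05 and Abca7 -0.28 ± 0.08. The earlier times gave few such genes. At 1 h 1 fatty acid gene and 1 other transport gene were higher (2.32% of all genes) and 1 other transport gene was lower. At 8 h 2 other transport genes were higher (3.95% of all genes) and 1 fatty acid gene, Fads2, was lower. With batch as a covariate at 8 h, where 13.5% of all genes were called, 1 of 11 other synthesis genes, 2 of 13 fatty acid genes and 6 of 28 other transport genes were called. Cyb5r3 (-0.41 ± 0.12, adjusted p = 0.0398), Fads2 (-0.75 ± 0.11, 0.00164) and Pltp (-0.54 ± 0.12, 0.0154) fell in that fit, and Gpam (0.73 ± 0.15, 0.00831) and Osbp (0.60 ± 0.12, 0.00863) rose.

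miR-33 lies in intron 17 of Srebf2 (in a transcript of 21 exons), at chr15:82028552-82028620 on the plus strand of NCBIM37, and is known to repress cholesterol efflux genes. Its mature arms are shown with the seed, bases 2 to 8, in capitals (RefSeq, GRCm38.p6), because the hairpin lies within Srebf2.
miR-33-5p: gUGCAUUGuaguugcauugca
miR-33-3p: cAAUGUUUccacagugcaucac
The match to the seed of the 5p arm, CAATGCA, was found on the transcript strand in the 3′ untranslated region of 3 of 32 members, Abca1 (3 sites), Abcg1 (2) and Nsdhl (1), beside 6.32% of 20007 genes. The sites of both pumps lie close together, with the matches in capitals (NCBIM37).
Abca1, chr4:53046657-53046682, minus strand: ttCAATGCAATGCActtCAATGCAac
Abcg1, chr17:31251945-31251965, plus strand: cgCAATGCAacgCAATGCAga

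Both arms of miR-33 were scarce, with 7 to 167 counts of the 5p arm and 3 to 55 of the 3p arm per library. At 8 h miR-33-5p measured 6.30 and 1.48 CPM in SE against 3.54 and 3.12 CPM in controls, and at 24 h 5.62 and 11.0 CPM against 14.1 and 17.5 CPM. Its log2 fold changes were -0.66 ± 0.78, 0.23 ± 0.88, -0.92 ± 0.78 and -0.44 ± 0.77 at the 4 times in order. Without SE replicate 2 of 120 h, whose label names another hour, the 120-h value was 0.30. No time gave an unadjusted p under 0.05 for miR-33-5p or for any of the 8 microRNAs listed. The quasi-likelihood test called 0 of 1103 small RNA features (0%) at each time, with 42 (3.81%), 155 (14.1%), 14 (1.27%) and 29 (2.63%) at an unadjusted p under 0.05 at the 4 times in order. The likelihood ratio test called 16 features and DESeq2 14 at 8 h, and at the other times they called 0 or 1. Libraries of 1 group differed widely, with 19.9 and 4.16 CPM of miR-33-5p in the 1-h controls (167 and 23 counts). With standard errors from 0.71 to 0.88 for both arms, the differences between SE and control were of the size of the spread between libraries.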

How the data were processed

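Raw read counts per gene were deposited by the authors, who named HISAT2 2.1.0, bcl2fastq and HTSeq with build NCBIM37 (mm9) in their processing notes. The libraries came from a stranded kit, and the strand setting of the counting is not given in the sources used here. Counts of Fdft1, Mvd, Lss, Npc1, Scap, Srebf1 and Nr1h3 may therefore be affected by genes that overlap them on the opposite strand. Tm7sf2, Nr1h3, Srebf2, Abcg1 and Fdps overlap genes on their own strand, which may affect their counts under any strand setting. Totals were 8503816 to 28465548 counts per mRNA library and 3171341 to 7683708 per small RNA library, which bounds the precision of low genes.

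Each time was fitted across all genes with edgeR 4.0.16 (quasi-likelihood test, TMM, filterByExpr with a minimum count of 10, R 4.3.3, limma 3.58.1), and differences between times in 1 fit of all 19 libraries, with Benjamini-Hochberg adjusted p and a threshold of 0.05. CPM are TMM-normalized over the 19 libraries. Overlap of groups was read within each time's own scaling. DESeq2 1.42.0, other normalization and filters, covariates for batch, Xist, choroid plexus and myelin, a replicate block and leaving out libraries were the alternatives. Scripts were tested on simulated data. Members and lists were chosen with earlier results of these data known. A result on a further gene is not reported here, and the list of other synthesis genes was counted without it. Fold changes with standard errors are given for members past the adjusted threshold plus the 6 with the smallest p in each comparison. Values per library and adjusted p are given for part of these. Fold changes are also given for up to 4 genes of each further list. Promoters and microRNAs came from RefSeq, and 3′ untranslated regions from the NCBIM37 annotation. Deviations from the group mean in same-numbered mRNA libraries had correlations from -0.243 to 0.208. Such deviations cancel within a group, so in groups this small they cannot show whether the numbers pair the libraries.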

Additional observations from a re-analysis of the deposited data

Results flagged for a closer look

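Msmo1 was picked out by the test of the difference between times. Its SE effect was higher at 36 h than at 8 h by 0.96 on the log2 scale (adjusted p = 0.0119, edgeR's quasi-likelihood test), with SE below control in 2 of 2 libraries at 8 h and above it in 3 of 3 at 36 h. The effect at 120 h differed from that at 36 h by -0.59 (adjusted p = 0.00851), with all 3 SE libraries of 120 h below all 3 of 36 h. The 8-h libraries carry the batch labels G317 and, for 1 control, G511. The 36-h and 120-h libraries with their shared controls carry G545, so time and batch cannot be told apart between 8 h and 36 h. Xist exceeded 100 CPM in 2 of 3 shared controls and in none of the SE libraries at 36 h. Microglia markers had a mean log2 CPM of 4.47 to 4.56 in SE against 4.74 to 4.81 in controls at 8 h. At 36 h they had 5.16 to 5.30 against 5.09 to 5.19. No covariate for Xist or cell markers was fitted to either difference between times, and the part of these features was not tested. No other member passed either test of a difference between times, and 25 and 14 of 17415 genes did.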

How the results depend on the processing

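The synthesis median kept its sign at 8 h, 36 h and 120 h under every alternative run. Counts of calls moved far more. Genes called were 13, 0, 4 and 9 at the 4 times in order, and became 69, 89, 125 and 76 by the likelihood ratio test, 63, 95, 101 and 144 by DESeq2, 328, 343, 141 and 52 with no filter, 55, 423, 10 and 0 with all 19 libraries in 1 fit, and 42, 31, 12 and 1 with the replicate block. Whether same numbers pair the libraries could not be decided from these data. With the choroid plexus covariate genes called were 7 at 1 h, 31 at 36 h and 2 at 120 h. With myelin they were 3 at 8 h, 168 at 36 h and 18 at 120 h, with Xist 0 at 36 h and 1 at 120 h, and with batch 2111 at 8 h. Leaving out 1 library gave 3 to 53, 0 to 2065, 0 to 469 and 1 to 3. Members called, 0 at each time, became 1 with no filter at 1 h, 8 h and 36 h, 2 with all 19 libraries and 9 with batch at 8 h, and 1 by the likelihood ratio test, 1 by DESeq2 and 2 with myelin at 36 h. Leaving out 1 library gave 0 to 9 at 8 h and 0 to 2 at 36 h. Members at an unadjusted p under 0.05 were 1 at 1 h, and became 2 by both other tests, with no filter, the replicate block, Xist or myelin, 3 with all 19 libraries or choroid plexus, and 0 to 9 without 1 library. At 8 h 7 became 2 with the block, 12 with batch and 1 to 12 without 1 library. At 36 h 16 became 9 with all 19 libraries and 4 with Xist. At 120 h 9 became 5 by the likelihood ratio test or with choroid plexus, 3 with all 19 libraries and 4 to 12 without 1 library. The synthesis median at 8 h was -0.31 with Xist and -0.43 to -0.14 without 1 library, and at 120 h -0.15 to -0.046. The median of regulators and transport was -0.13 to 0.11, -0.022 to 0.19, 0.075 to 0.16 and 0.013 to 0.072 without 1 library at the 4 times, and 0.063 with myelin at 36 h. Between times, genes called were 25 (36 h and 8 h), 26 (8 h and 1 h) and 14 (120 h and 36 h). They became 198, 128 and 42 by the likelihood ratio test, 746, 480 and 155 with no filter, 2381, 652 and 30 without the G511 libraries, and 0, 5 and 3 with the block, and ranged over 0 to 1976, 0 to 1183 and 4 to 8 without 1 library. Members called, 1, 0 and 1, became 2 by the likelihood ratio test for the first and last, 5 and 3 with no filter, 11, 4 and 3 without G511, and 0 with the block for the first and last, where Msmo1 had adjusted p of 0.0652 and 0.0886. Without 1 library they ranged over 0 to 11, 0 to 3 and 0 to 1. Members at an unadjusted p under 0.05 ranged over 9 to 17 for the first and 3 to 13 for the second, with 11 for the second without G511. Small RNA features called, 0 at each time, became 3, 80, 7 and 32 with no filter, 16 by the likelihood ratio test and 14 by DESeq2 at 8 h, and 1 by DESeq2 at 120 h, with 0 to 10 at 1 h and 0 to 63 at 8 h without 1 library. Crossing the replicate numbers in the block at 8 h, chosen after seeing the data, gave 6 features and a miR-33-5p value of -0.0099. Without 1 library miR-33-5p ranged over -1.51 to 0.87, -1.12 to 0.92 and -1.76 to 0.30 at 1 h, 8 h and 120 h, and miR-33-3p over -1.53 to 0.43, -1.03 to 1.32, -0.33 to 0.35 and -0.40 to 0.78 at the 4 times. Causes of these shifts were not tested. Low members such as Nr1h3, with counts from 22, carry the most counting error.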
